A study of Homo sapiens with 9 samples.

Results

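The genes described here were 4 subunits of the hypoxia-inducible factors (HIF1A, EPAS1, ARNT and ARNT2), the prolyl hydroxylase gene EGLN1 and 5 known hypoxia targets (VEGFA, NDRG1, ADM, BNIP3 and P4HA1). They were picked by gene name, with earlier results of these data known, and make up 10 of the 27615 genes in the longest gene list of the series. Of these, 7 were listed for all 9 libraries. ARNT and ADM were not listed for rimonabant replicate 1, and ARNT2 was listed neither for that library nor for vehicle replicate 2. A gene without a line in a list was treated as not listed and never as 0.

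Poly(A)-selected RNA was sequenced from MDA-MB-231, an established human triple-negative breast cancer line, in 3 groups of 3 libraries. The groups were treated with DMSO (vehicle), with rimonabant, an antagonist of cannabinoid receptor 1, or with TXX-1-10, a compound that the study derived from rimonabant. The series was made to compare the gene expression changes caused by the compounds. All groups were the same cell line, the vehicle libraries served as controls for both compounds, and the dose and length of treatment of the sequenced cells were not given in the sources used here. Nothing in the labels said that the libraries came from separate cultures, so the p-values measure the spread between these libraries, which may be technical. The oxygen conditions of the culture were also not given.

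HIF is a pair of proteins, an oxygen-regulated alpha subunit (HIF1A or EPAS1, the latter also called HIF-2 alpha) and a constitutive beta subunit (ARNT or ARNT2). In oxygen, hydroxylases such as EGLN1 modify the alpha subunit, the VHL ubiquitin ligase then binds it, and it is degraded. When oxygen is low the alpha subunit persists, joins its partner and binds a short core motif near genes of glycolysis, angiogenesis, mitophagy and collagen synthesis. Much of this control acts on protein stability, and the libraries measured RNA only.

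Stretches upstream of the start sites are shown because this core motif, ACGTG or GCGTG, marks where HIF can bind and because they let the genes be compared at the sequence level. The sequences are from RefSeq (GRCh38.p14), read 5′ to 3′ on the strand of the gene. Both motifs were searched on both strands over the 250 bases before the start, and capitals mark a match, which appears as CACGT or CACGC where the motif lies on the opposite strand. Of 35116 RefSeq promoters, 18.5% held ACGTG, 32.2% held GCGTG and 43.2% held at least 1 of them. Among the 7 promoters searched, that of ARNT held neither. HIF1A and EPAS1 each held 1 GCGTG, ADM 1 GCGTG, EGLN1 1 ACGTG and P4HA1 1 ACGTG. BNIP3 held 2 ACGTG matches, which are the same palindrome read on both strands, and 4 GCGTG matches. For HIF1A (chr14:61695263-61695512, plus strand), EPAS1 (chr2:46297157-46297401, plus strand) and BNIP3 (chr10:131982014-131982173, minus strand), the stretch that lies outside every GENCODE exon of the gene is given. The EPAS1 stretch lies before the RefSeq start used but inside the counted gene, which runs from 46293667 to 46386703. For EGLN1 (chr1:231422288-231422312, minus strand), ADM (chr11:10304962-10304986, plus strand) and P4HA1 (chr10:73096938-73096962, minus strand), the motif lay within the longest GENCODE model of the gene, and 25 bases around it are given.
HIF1A: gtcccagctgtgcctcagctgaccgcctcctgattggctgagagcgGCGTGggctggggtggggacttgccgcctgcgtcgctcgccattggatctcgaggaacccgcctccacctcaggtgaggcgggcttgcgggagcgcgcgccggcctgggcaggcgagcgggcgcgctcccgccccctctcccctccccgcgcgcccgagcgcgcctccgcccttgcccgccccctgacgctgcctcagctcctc
EPAS1: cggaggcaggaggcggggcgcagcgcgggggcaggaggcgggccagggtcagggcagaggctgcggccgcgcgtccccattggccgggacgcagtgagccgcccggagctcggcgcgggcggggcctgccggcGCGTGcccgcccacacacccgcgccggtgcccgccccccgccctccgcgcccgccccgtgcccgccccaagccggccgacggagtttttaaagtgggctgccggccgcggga
BNIP3: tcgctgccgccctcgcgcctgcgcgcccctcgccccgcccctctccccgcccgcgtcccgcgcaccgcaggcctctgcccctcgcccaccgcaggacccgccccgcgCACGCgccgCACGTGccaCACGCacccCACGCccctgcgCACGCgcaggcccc
EGLN1: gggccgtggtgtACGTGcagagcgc
ADM: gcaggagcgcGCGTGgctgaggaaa
P4HA1: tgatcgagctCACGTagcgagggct
A match is a description of these letters and was not tested for binding. VEGFA, ARNT2 and NDRG1 are named without sequence.

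The library totals behind the authors' FPKM values (fragments per kilobase of exon, scaled to library size) ran from 17078370 to 17245379 in the vehicle group, from 17477838 to 18813662 in the rimonabant group and from 18394759 to 19277808 in the TXX-1-10 group. These totals are not sums of the listed counts. In vehicle replicate 1 the listed counts summed to 17492638, above its total of 17078370. In TXX-1-10 replicate 1 they summed to 17586399, below its total of 19277808. Rimonabant replicate 1 and TXX-1-10 replicate 3 stood apart from their groups, with counts that fell with gene length (Spearman's rho across genes -0.694 and -0.692 with the deviation from the group). Of 18 markers, 8 were tested in a fit of 8 libraries, with 1 higher and 5 lower under rimonabant and 1 higher and 6 lower under TXX-1-10 (median -0.61). Of all genes in that fit, 23.7% were called higher and 22.8% lower under rimonabant, and 34.6% and 40.6% under TXX-1-10. VIM was between 224 and 329 FPKM and MSN between 239 and 272 FPKM in all libraries, while LGALS1 had means of 414, 246 and 163 FPKM, AXL of 217, 187 and 126 FPKM and KRT8 of 68.5, 40.9 and 36.3 FPKM in vehicle, rimonabant and TXX-1-10. In the same order CD44 had means of 39.7, 47.3 and 27.7 FPKM, KRT18 of 74.8, 44.1 and 46.2 FPKM and ERBB2 of 9.40, 9.06 and 7.17 FPKM. The part of these differences in the results below was not tested. In the libraries that listed them, EPCAM was between 4.47 and 5.37 FPKM, CDH1 was at 0, and ESR1, PGR and the leukocyte gene PTPRC were at most 0.0639 FPKM. GATA3 had means of 1.35, 0.896 and 0.530 FPKM in vehicle, rimonabant and TXX-1-10. Where listed, COL1A1 was between 0.310 and 0.798 FPKM, ACTA2 between 0.390 and 0.943 FPKM and PECAM1 between 0.0560 and 0.172 FPKM. KRT5 was listed in no library. In bulk RNA of this kind, fewer cells of a type and less RNA per cell cannot be told apart.

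HIF1A, the oxygen-regulated subunit of HIF-1, was the most abundant of the 10 genes in every group and fell under both compounds. Its level was 127, 125 and 121 FPKM in the vehicle libraries, 46.8, 52.0 and 50.9 FPKM in the rimonabant libraries and 69.8, 68.7 and 64.6 FPKM in the TXX-1-10 libraries. The 3 groups did not overlap, and the rimonabant libraries were lowest. In edgeR's quasi-likelihood test with Benjamini-Hochberg adjustment, the log2 fold change was -1.32 ± 0.06 (SE, adjusted p = 1.98e-07) under rimonabant, a level 0.401 times that of vehicle. Under TXX-1-10 it was -0.88 ± 0.06 (adjusted p = 2.28e-07), a level 0.544 times that of vehicle. HIF1A lies on chromosome 14 at 61695513 to 61748259 (GRCh38, plus strand). It shares 2.27% of its exon bases with the antisense gene HIF1A-AS1, which had 2 to 17 counts where listed, and 2.87% with AL137129.1, and the strand setting of the counting was not given in the sources used here.

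EPAS1, the alpha subunit of HIF-2, fell under rimonabant, and its difference under TXX-1-10 did not pass the test. It was at 21.7, 21.3 and 21.5 FPKM in vehicle, 14.0, 15.8 and 14.7 FPKM in rimonabant and 20.5, 20.2 and 18.1 FPKM in TXX-1-10. The rimonabant values lay apart from both other groups, while the TXX-1-10 values lay just below vehicle without overlapping. The log2 fold change was -0.54 ± 0.06 (adjusted p = 8.26e-05) under rimonabant and -0.14 ± 0.06 (adjusted p = 0.0639, 95% interval -0.27 to -0.0011) under TXX-1-10. In the fit of 8 libraries without rimonabant replicate 1, the TXX-1-10 difference had the same size and an adjusted p of 0.0461. Over 22 alternatives this difference ran from -0.169 to -0.035, and it passed the test in only 2 of them.

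Summed over HIF1A and EPAS1, alpha subunit RNA was 146 ± 3.07 FPKM in vehicle, 64.8 ± 3.54 FPKM in rimonabant and 87.3 ± 4.08 FPKM in TXX-1-10 (mean ± SD, n = 3). HIF1A made up 85.3% ± 0.27 of this sum in vehicle, 77.1% ± 0.46 in rimonabant and 77.6% ± 0.49 in TXX-1-10. HIF1A therefore stayed the main alpha subunit by RNA in all groups, with a smaller share in the treated cells.

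Under TXX-1-10 the beta subunits moved in opposite directions. ARNT, the general partner of the alpha subunits, was at 6.15, 5.55 and 6.28 FPKM in vehicle, 7.24 and 6.76 FPKM in rimonabant replicates 2 and 3, and 9.85, 9.61 and 7.87 FPKM in TXX-1-10. The groups did not overlap, and TXX-1-10 replicate 3, a library that stood apart by gene length, was the lowest of its group. ARNT rose under TXX-1-10 (log2 fold change 0.60 ± 0.09, adjusted p = 4.19e-05). Under rimonabant its log2 fold change was 0.22 ± 0.10 (adjusted p = 0.0804, 95% interval 0.01 to 0.44). Without TXX-1-10 replicate 3 in the fit, that value was also 0.22, with an adjusted p of 0.00359. Over 22 alternatives the ARNT difference under rimonabant passed the test in only 4.

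ARNT2, a related partner best known from neural tissue, showed the largest difference of the 10 genes under either compound. It was at 2.43 and 2.18 FPKM in vehicle replicates 1 and 3, 0.632 and 0.781 FPKM in rimonabant replicates 2 and 3, and 0.168, 0.162 and 0.168 FPKM in TXX-1-10. These levels rest on 291 to 321 counts per vehicle library, 92 to 112 per rimonabant library and 23 to 25 per TXX-1-10 library. The 3 groups were far apart relative to their spread. In the fit of the 7 libraries that listed it, ARNT2 fell by 1.71 ± 0.15 on the log2 scale under rimonabant (adjusted p = 1.89e-05) and by 3.79 ± 0.16 under TXX-1-10 (adjusted p = 3.49e-09), to 0.0723 times its vehicle level. Its share of ARNT and ARNT2 together was 27.1% in vehicle (n = 2), 9.19% in rimonabant (n = 2) and 1.81% in TXX-1-10 (n = 3). The sum of both was 8.52, 7.70 and 9.28 FPKM, so under TXX-1-10 it moved less than either gene.

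EGLN1, the hydroxylase that marks HIF alpha for degradation in oxygen and is itself a HIF target, differed between the compounds. It was at 13.1, 12.9 and 12.7 FPKM in vehicle, 17.8, 17.7 and 17.6 FPKM in rimonabant and 10.8, 11.8 and 11.8 FPKM in TXX-1-10. Rimonabant libraries were above vehicle and TXX-1-10 libraries below it, with no overlap. EGLN1 rose by a log2 fold change of 0.46 ± 0.05 under rimonabant (adjusted p = 4.93e-05) and fell by 0.17 ± 0.05 under TXX-1-10 (adjusted p = 0.0103). The small fall depended on how libraries were scaled: it was -0.07 with an adjusted p of 0.222 under TMM scaling and -0.07 with 0.219 in DESeq2, and it was -0.12 with an adjusted p of 0.0504 without TXX-1-10 replicate 1. After a correction for gene length it was -0.08 with an adjusted p of 0.125.

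**Figure D1:**
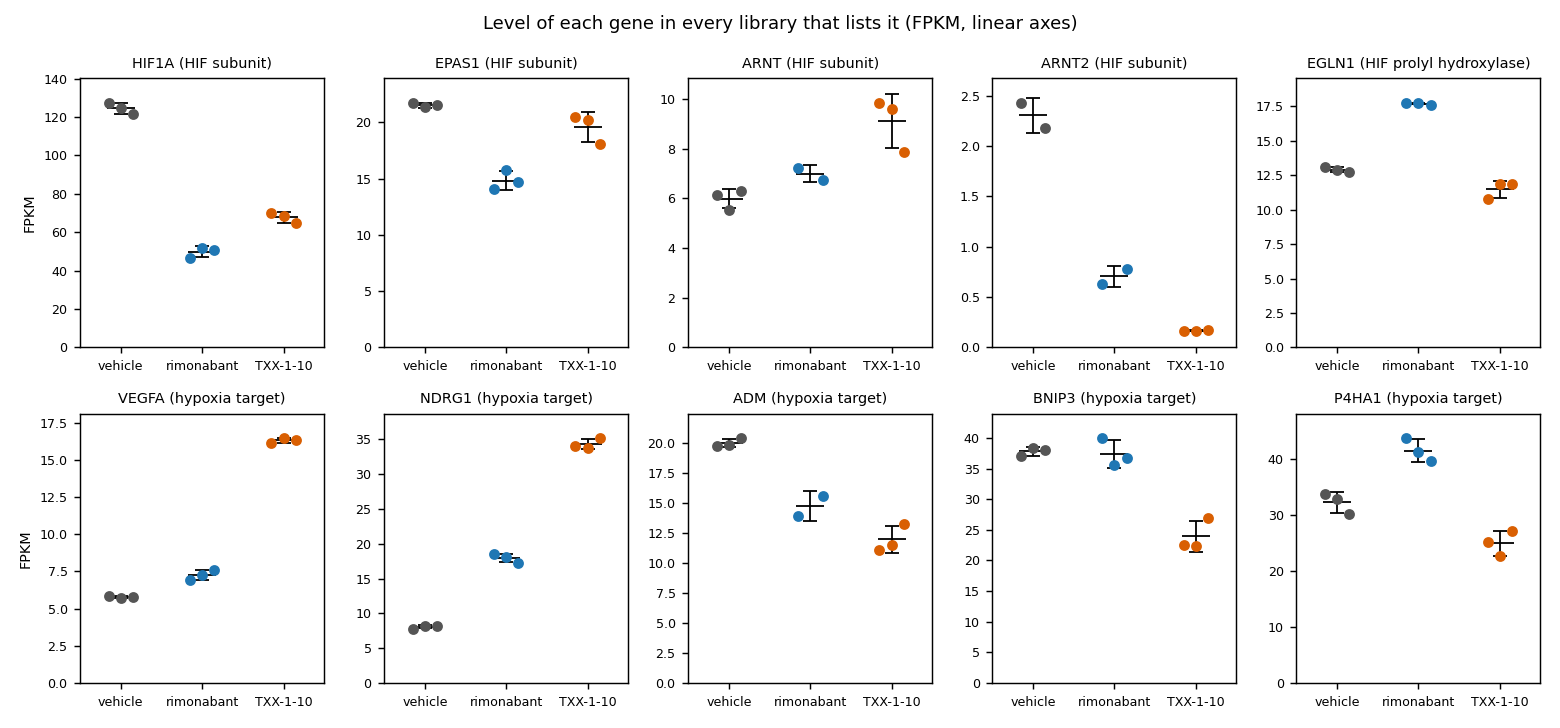
Level of each of the 10 genes in FPKM (vertical axes, linear and starting at 0) in every library that lists it. Points are libraries, bars are the group mean and SD, with 3 libraries per group except where a gene is not listed (ARNT and ADM have 2 rimonabant libraries, ARNT2 has 2 vehicle and 2 rimonabant libraries). HIF1A is highest in vehicle (121 to 127), while VEGFA and NDRG1 are highest in TXX-1-10 (16.1 to 16.5 and 33.8 to 35.2).

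Of the 5 targets, VEGFA and NDRG1 rose under both compounds. VEGFA, the main growth factor for blood vessels, was at 5.86, 5.73 and 5.77 FPKM in vehicle, 6.89, 7.25 and 7.58 FPKM in rimonabant and 16.1, 16.5 and 16.4 FPKM in TXX-1-10. The TXX-1-10 libraries stood far above both other groups, and the rimonabant libraries lay just above vehicle. The log2 fold change was 0.32 ± 0.05 under rimonabant (adjusted p = 0.000356) and 1.50 ± 0.05 under TXX-1-10 (adjusted p = 1.61e-09), a level 2.82 times that of vehicle.

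NDRG1, a stress-responsive gene often used as a readout of hypoxia, was at 7.78, 8.15 and 8.23 FPKM in vehicle, 18.5, 18.0 and 17.3 FPKM in rimonabant and 34.1, 33.8 and 35.2 FPKM in TXX-1-10. Each group was separate, with the order vehicle, rimonabant, TXX-1-10. NDRG1 rose by 1.15 ± 0.05 on the log2 scale under rimonabant (adjusted p = 1.59e-07), a level 2.22 times that of vehicle. It rose by 2.09 ± 0.05 under TXX-1-10 (adjusted p = 3.39e-10), a level 4.26 times that of vehicle.

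ADM, which encodes the vasodilator peptide adrenomedullin, fell under both compounds. It was at 19.8, 19.9 and 20.4 FPKM in vehicle, 13.9 and 15.6 FPKM in rimonabant replicates 2 and 3, and 11.1, 11.5 and 13.3 FPKM in TXX-1-10. The treated groups lay below vehicle and did not overlap each other, and the highest TXX-1-10 value was that of replicate 3. The log2 fold change was -0.44 ± 0.08 under rimonabant (adjusted p = 0.00118) and -0.74 ± 0.08 under TXX-1-10 (adjusted p = 1.87e-06).

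BNIP3, a mitochondrial protein that promotes mitophagy, fell under TXX-1-10 only among the tests against vehicle. It was at 37.1, 38.3 and 38.1 FPKM in vehicle, 40.0, 35.6 and 36.8 FPKM in rimonabant and 22.5, 22.4 and 26.9 FPKM in TXX-1-10. Rimonabant and vehicle values overlapped, while all TXX-1-10 values were lower. The log2 fold change was -0.66 ± 0.07 under TXX-1-10 (adjusted p = 1.81e-05). Under rimonabant it was -0.01 ± 0.07 (adjusted p = 0.885), with a 95% interval of -0.18 to 0.15, and the difference between the compounds was itself past the test (-0.65 ± 0.07, adjusted p = 3.52e-05).

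P4HA1, the catalytic subunit of the prolyl hydroxylase of collagen, moved in opposite directions under the compounds. It was at 33.9, 32.9 and 30.2 FPKM in vehicle, 43.8, 41.2 and 39.7 FPKM in rimonabant and 25.2, 22.6 and 27.1 FPKM in TXX-1-10. The rimonabant group was highest and the TXX-1-10 group lowest, with no overlap. The log2 fold change was 0.36 ± 0.07 under rimonabant (adjusted p = 0.0026) and -0.37 ± 0.07 under TXX-1-10 (adjusted p = 0.00109).

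Under rimonabant, 8 of the 10 genes changed, and in the fit of 9 libraries, which tested 4236 genes and 7 of these 10, 48.9% of all genes were called. In the fits of 8 and 7 libraries, used for ARNT with ADM and for ARNT2, 46.5% and 34.8% of all genes were called. A change of 2-fold or more was found for HIF1A, ARNT2 and NDRG1, against a background of 1.13% of genes in the fit of 9 libraries and 2.41% in that of 7. Under TXX-1-10, 9 of the 10 genes changed, against 74.4%, 75.2% and 68.1% of all genes in the fits of 9, 8 and 7 libraries. Those at 2-fold or more were ARNT2, VEGFA and NDRG1, against 11.8% of genes in the fit of 9 libraries and 14.5% in that of 7. With the high backgrounds at any fold size, the counts of called genes say little about these genes as a group. The 2-fold backgrounds were lower, but the genes were picked with earlier results known. The 2-fold counts were therefore not read as a result about the group. The share of all genes whose groups did not overlap is not given, so separate group ranges also say little about them as a group.

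Set beside each other, the subunits and the targets did not share 1 direction. HIF1A fell under both compounds and was lower under rimonabant, while VEGFA and NDRG1 rose under both and were higher under TXX-1-10. ADM fell along with HIF1A, but was lower under TXX-1-10 than under rimonabant. EGLN1 and P4HA1 were raised by rimonabant, the compound with the lower HIF1A and EPAS1 levels, and BNIP3 did not pass the test there. Both compounds were set against the same vehicle libraries, so the columns of values against vehicle are not independent of each other.

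**Figure D2:**
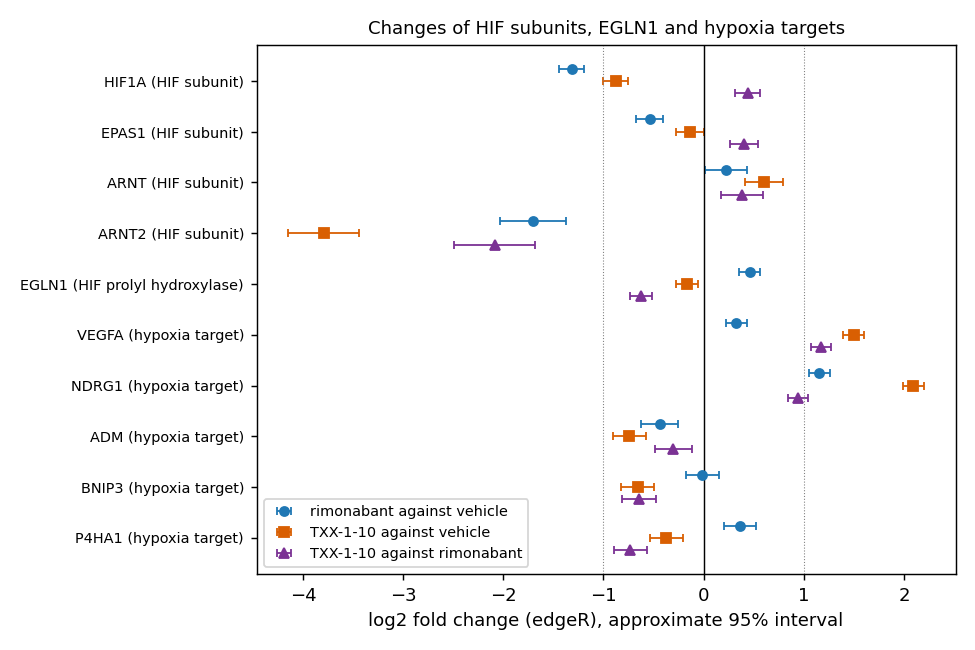
Log2 fold change (horizontal axis, edgeR) of each gene with its approximate 95% interval, for rimonabant against vehicle (circles), TXX-1-10 against vehicle (squares) and TXX-1-10 against rimonabant (triangles). Dotted lines mark 2-fold. ARNT2 extends furthest to the left (-3.79 under TXX-1-10) and NDRG1 furthest to the right (2.09).

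All 10 genes differed between TXX-1-10 and rimonabant in the direct comparison, where 64.5%, 60.5% and 54.8% of all genes were called in the fits of 9, 8 and 7 libraries. The vehicle libraries were in the same fits and entered the estimate of the spread. Adjusted p-values were taken over all genes of each fit, and the doses of the compounds could not be matched from the sources used here. Of the genes called in the fit of 9 libraries, 39.0% were higher under TXX-1-10, and 50.6% under TMM scaling. VEGFA (log2 difference 1.17 ± 0.05, adjusted p = 1.96e-08) and ARNT2 (-2.08 ± 0.18, adjusted p = 2.74e-06) differed by 2-fold or more, against backgrounds of 5.93% in the fit of 9 libraries and 7.21% in that of 7. NDRG1 was higher under TXX-1-10 by 0.94 ± 0.04 (adjusted p = 6.49e-08), just under 2-fold, and by 1.03 under TMM scaling and in DESeq2, just over it.

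Both alpha subunits were higher under TXX-1-10 than under rimonabant, HIF1A by 0.44 ± 0.06 (adjusted p = 6.69e-05) and EPAS1 by 0.40 ± 0.06 (adjusted p = 0.000239). ARNT was higher by 0.38 ± 0.10 (adjusted p = 0.00447). P4HA1 fell by 0.73 ± 0.07 relative to rimonabant (adjusted p = 1.34e-05), EGLN1 by 0.62 ± 0.05 (adjusted p = 1.97e-06) and ADM by 0.30 ± 0.08 (adjusted p = 0.0083). Without rimonabant replicate 3 the ARNT difference was 0.33 (adjusted p = 0.0523) and the ADM difference -0.22 (adjusted p = 0.116), neither past the test, with 1 rimonabant library left in the fit, which was assumed to vary like the other groups.

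The level order differed between groups. In vehicle it was HIF1A, BNIP3, P4HA1, EPAS1, ADM, EGLN1, NDRG1, ARNT, VEGFA and ARNT2, and only ARNT and VEGFA overlapped among neighbours. In rimonabant P4HA1 and BNIP3, NDRG1 and EGLN1, EPAS1 and ADM, and VEGFA and ARNT were neighbours that overlapped. In TXX-1-10 NDRG1 stood next after HIF1A, and overlaps were between P4HA1 and BNIP3 and between ADM and EGLN1. FPKM is scaled by exon length, which ran from 2718 bases for ADM to 14431 bases for VEGFA, so the order also depends on which exons the authors' gene models hold.

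Other genes of the pathway were tested in the fit of 8 libraries (9397 genes). That fit leaves out rimonabant replicate 1, while the rimonabant mean levels of these genes include it wherever it lists them. For those genes the levels and the log2 fold changes rest on different rimonabant libraries. The median log2 fold change of all genes in the fit was 0.00 under rimonabant and -0.04 under TXX-1-10. Under rimonabant 23.7% of genes were called higher and 22.8% lower, and under TXX-1-10 34.6% and 40.6%. Of 16 genes of oxygen sensing and HIF degradation, 13 were tested, of which 5 rose and 1 fell under rimonabant (median 0.13) and 7 rose and 6 fell under TXX-1-10 (median 0.27). UBE2D1, a ubiquitin-conjugating enzyme, rose from 8.23 ± 0.12 FPKM (n = 3) to 12.6 ± 0.65 FPKM (n = 2) and 18.1 ± 0.85 FPKM (n = 3), a log2 fold change of 0.61 (adjusted p = 3.07e-05) and 1.14 (adjusted p = 6.16e-09). VHL, which recognises hydroxylated HIF alpha, rose under TXX-1-10 by 0.63 (adjusted p = 5.03e-06), and SIAH1, a ubiquitin ligase that acts on HIF hydroxylases, rose there by 0.87 (adjusted p = 1.8e-05). HIF1AN, the asparagine hydroxylase of HIF alpha, rose under rimonabant by 0.36 (adjusted p = 0.000281) and under TXX-1-10 by 0.28 (adjusted p = 0.00024). SIAH2 had means of 9.96, 13.6 and 14.5 FPKM in vehicle, rimonabant and TXX-1-10. It rose under rimonabant by 0.45 (adjusted p = 0.00393). Without rimonabant replicate 3 the adjusted p of SIAH2 was 0.0665.

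Of 21 coactivators and regulators of HIF, 19 were tested, of which 4 rose and 5 fell under rimonabant (median -0.04) and 5 rose and 10 fell under TXX-1-10 (median -0.24). RUVBL1 and RUVBL2, paired ATPases of chromatin remodelling complexes, both fell, by 0.60 (adjusted p = 7.29e-06) and 0.55 (adjusted p = 0.000129) under rimonabant, and RUVBL2 fell by 1.03 under TXX-1-10 (adjusted p = 3.66e-08). CITED2, which competes with HIF alpha for p300, fell by 0.60 under rimonabant (adjusted p = 8.43e-05). PKM, pyruvate kinase, fell by 0.94 under TXX-1-10 (adjusted p = 7.31e-09), and EIF4EBP1, a repressor of translation, rose by 0.84 (adjusted p = 1.7e-06). In vehicle, rimonabant and TXX-1-10, mean levels were 21.4, 15.1 and 12.5 FPKM for RUVBL1 and 59.4, 40.4 and 37.0 FPKM for CITED2. In the same order PKM had 231, 176 and 121 FPKM and EIF4EBP1 had 65.4, 91.4 and 117 FPKM.

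Glycolytic targets fell more often than they rose, unlike VEGFA and NDRG1. All 18 were tested, with 4 higher and 12 lower under rimonabant (median -0.26) and 3 higher and 14 lower under TXX-1-10 (median -0.83). LDHA, lactate dehydrogenase A, was at 242 ± 4.07 FPKM in vehicle, 171 ± 12.1 FPKM in rimonabant and 54.4 ± 4.29 FPKM in TXX-1-10 (mean ± SD, n = 3), and fell by 2.15 under TXX-1-10 (adjusted p = 3.84e-11). The glucose transporter SLC2A1 fell by 1.63 under TXX-1-10 (adjusted p = 3.84e-11), from 48.6 ± 0.37 to 15.7 ± 0.44 FPKM, while its relative SLC2A3 rose by 0.91 under rimonabant (adjusted p = 1.43e-06) and by 2.17 under TXX-1-10 (adjusted p = 2.31e-11). SLC16A3, a lactate exporter, fell by 0.76 under rimonabant (adjusted p = 2.65e-06), and the enolase ENO2 rose by 0.74 (adjusted p = 5.39e-07). In vehicle, rimonabant and TXX-1-10, mean levels were 53.5, 32.4 and 24.9 FPKM for SLC16A3 and 37.9, 64.9 and 55.9 FPKM for ENO2. SLC2A1 was at 33.8 FPKM in rimonabant.

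Of 45 hypoxia targets outside glycolysis, 36 were tested, with 19 higher and 7 lower under rimonabant (median 0.22) and 18 higher and 14 lower under TXX-1-10 (median 0.14). The transcriptional repressor BHLHE40 rose by 1.08 under rimonabant (adjusted p = 1.19e-07) and by 2.15 under TXX-1-10 (adjusted p = 1.2e-11). The haem-degrading enzyme HMOX1 rose by 3.21 under TXX-1-10 (adjusted p = 3.01e-10), from 4.15 ± 0.80 to 38.4 ± 4.74 FPKM (n = 3). HMOX1 also rose under rimonabant, by 0.91 (adjusted p = 0.00048). VLDLR, a lipoprotein receptor, rose by 0.93 under rimonabant (adjusted p = 4.38e-06) and by 1.09 under TXX-1-10 (adjusted p = 3.21e-08). LOXL2, which crosslinks collagen, fell by 0.99 under rimonabant (adjusted p = 3.7e-07) and by 2.05 under TXX-1-10 (adjusted p = 2.48e-11). PPFIA4, a liprin, fell by 2.82 under TXX-1-10 (adjusted p = 9.29e-10) and by 0.37 under rimonabant (adjusted p = 0.0132). Without vehicle replicate 3 the adjusted p of PPFIA4 under rimonabant was 0.0527. PPFIA4 levels were low, with means of 1.58, 1.22 and 0.222 FPKM in vehicle, rimonabant and TXX-1-10.

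**Figure D3:**
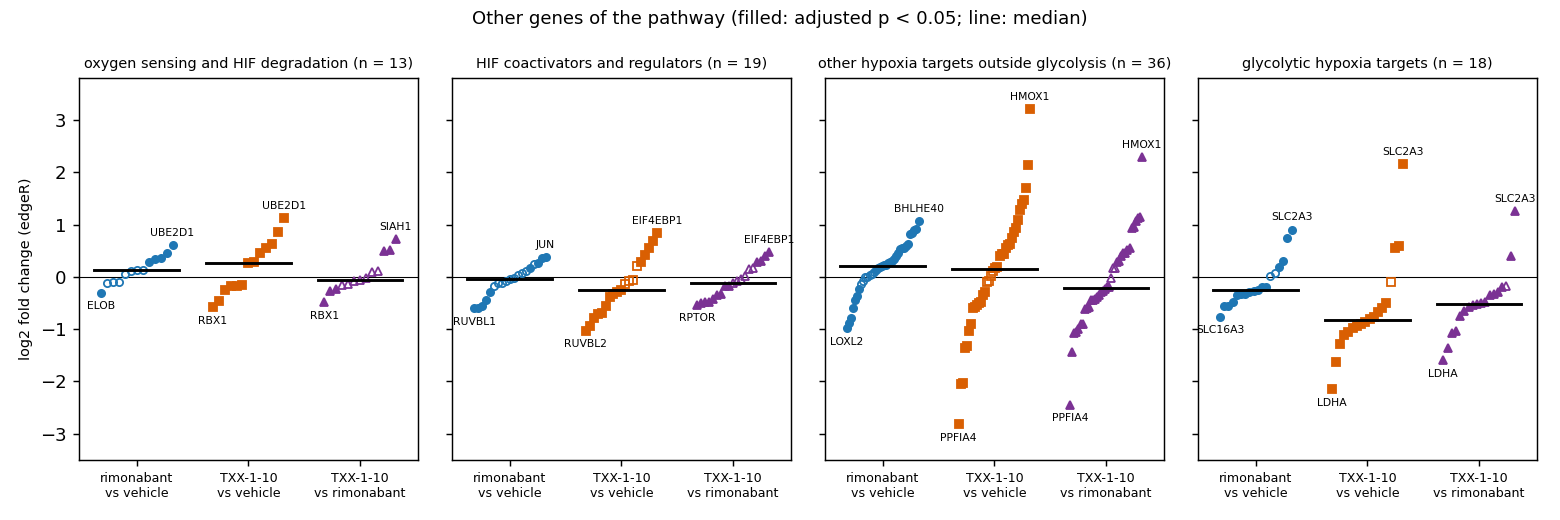
Log2 fold change (vertical axis, edgeR fit of 8 libraries) of each tested gene of 4 lists, sorted within each comparison. Filled symbols passed an adjusted p of 0.05, black lines are medians and the outermost genes are named. The median of the 18 glycolytic targets is -0.83 under TXX-1-10, with LDHA lowest (-2.15) and SLC2A3 highest (2.17).

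The genes whose log2(FPKM + 1) values followed HIF1A most closely over the 9 libraries were RBM12 (Pearson's r = 0.994), SINHCAF (0.993), AKAP12 (0.992), EPS8L2 (0.991) and TPM4 (0.986). These values describe 9 points that fall into 3 treatment groups. AKAP12, a scaffold protein for protein kinase A, had mean levels of 77.4, 30.0 and 40.2 FPKM in vehicle, rimonabant and TXX-1-10, and TPM4, a tropomyosin, had 95.1, 66.4 and 74.1 FPKM.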

How the data were processed

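Per the labels, 3 libraries each of cells treated with DMSO, rimonabant or TXX-1-10 were sequenced. The submitters' processing notes name HISAT2 2.0.5 and featureCounts 1.5.0-p3. The authors deposited unnormalised whole-number counts per gene and an FPKM value beside each, in lists of 4237 to 27615 genes that run from high to low counts and end mid-line. All 10 genes have the coordinates of GENCODE 29 (GRCh38).

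Counts were tested with edgeR 4.0.16 (R 4.3.3; estimateDisp, glmQLFit, glmQLFTest, Benjamini-Hochberg adjustment), with the library total behind the FPKM as library size. With that size, the median log2 fold change of all genes under TXX-1-10 was -0.09 in the fit of 9 libraries. Under TMM scaling it was 0.00. The fit of 9 libraries held 4236 genes with a mean FPKM of at least 1. ARNT and ADM came from the genes listed in 8 libraries (9397) and ARNT2 from those listed in 7 (11740), without that filter. A gene changed if its adjusted p was below 0.05. SE is the log2 fold change divided by the square root of F, which is approximate. The script was tested on simulated data.

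The genes and lists were chosen with earlier results of these data known. Text names all 10 genes, from each list the 3 largest changes passing the test under each compound, and the 5 genes most like HIF1A. Group FPKM values are means ± SD over libraries. Counting depth and the small number of libraries limit precision. Alternatives were TMM scaling, DESeq2 1.42.0, limma 3.58.1 on log2 FPKM with pseudocounts of 1 and 0.1, other filters, a gene length correction, the replicate block, fits of only the groups compared and each library left out. A mean FPKM of at least 1 in every fit was added after the data were seen.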

Additional observations from a re-analysis of the deposited data

How the results depend on the processing

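The number of genes differing by 2-fold or more between TXX-1-10 and rimonabant was 2. It was 3 under TMM scaling and in DESeq2, where NDRG1 passed 2-fold. It was 1 with limma on log2(FPKM + 1), with a mean FPKM of at least 5, with a mean FPKM of at least 1 in every fit, and with all genes taken from the fit of 8 libraries. The last 3 of these hold no ARNT2, and with limma its difference was -0.55 because the pseudocount shrinks low levels. With 1 library left out at a time, the log2 fold change of BNIP3 under rimonabant, which did not pass the test, ran from -0.064 to 0.021, the latter without rimonabant replicate 2. The difference of SIAH2 between the compounds, also not past the test, ran from -0.0070 without rimonabant replicate 2 to 0.20 without rimonabant replicate 3. It was -0.00093 without TXX-1-10 replicate 3 and -0.00093 without both that library and rimonabant replicate 1. Among the 10 genes and the named genes of the lists, no other value changed sign. HIF1A ranged from -1.35 to -1.27 under rimonabant and from -0.90 to -0.78 under TXX-1-10 over 22 alternatives, all past the test. DESeq2 moved the median of all genes under TXX-1-10 by 0.10 on the log2 scale in the fit of 9 libraries. Between the compounds, same-numbered libraries deviated together for replicate 2 (r = 0.83) and in opposite directions for replicates 1 and 3 (-0.79 and -0.61). Against vehicle r ran from -0.07 to 0.04. With no common sign across numbers, the replicate block describes only a shared number. With it, the number called of the 10 genes was 8 for rimonabant, 9 for TXX-1-10 and 10 for the direct comparison, and no call changed. Genes with few reads are missing from the shorter lists, which limited what was tested.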

Other observations

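Of the 45 hypoxia targets outside glycolysis, 9 were not tested because the lists were run only in the fit of 8 libraries and fewer libraries list these genes. HILPDA, ANKRD37 and TMEM45A were listed in 7 libraries, the number used for ARNT2. All 9 are given as levels without a test. CA9, a carbonic anhydrase widely used as a marker of HIF-1 activity, was between 0.631 and 0.800 FPKM in 2 vehicle libraries, between 0.127 and 0.162 FPKM in 2 rimonabant libraries and at 0 and 0.0326 FPKM in 2 TXX-1-10 libraries. HILPDA, a lipid droplet protein, was between 6.28 and 6.56 FPKM in 2 vehicle, between 4.46 and 5.32 FPKM in 2 rimonabant and between 3.66 and 4.51 FPKM in 3 TXX-1-10 libraries. STC2 was between 0.246 and 0.296 FPKM in vehicle, 0.123 and 0.182 FPKM in rimonabant and 0.124 and 0.133 FPKM in TXX-1-10. Mean levels of TMEM45A were 1.81, 1.86 and 1.21 FPKM in the same order, and those of RCOR2 were 0.554, 0.197 (1 library) and 0.248 FPKM. Others lay higher in the treated libraries: ANKRD37 had means of 1.15, 1.39 and 1.74 FPKM, and RORA, a nuclear receptor, of 0.0701, 0.149 and 0.506 FPKM. EPO and CXCR4 were at or below 0.0812 FPKM in the libraries that list them. Of the other hydroxylases, EGLN2 was between 0.881 and 1.52 FPKM and EGLN3 between 0.0148 and 0.247 FPKM in all libraries that list them, below EGLN1 throughout. In vehicle, rimonabant and TXX-1-10, means were 1.12, 1.01 and 1.40 FPKM for EGLN2 and 0.230, 0.204 and 0.0517 FPKM for EGLN3. EGLN2 and EGLN3 were also not tested.

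HIF1A-AS2, an antisense gene that overlaps HIF1A without sharing exon bases, had 130 and 154 counts in vehicle replicates 1 and 3, 210 and 177 in rimonabant replicates 2 and 3, and 212, 185 and 173 in TXX-1-10. In the fit of 7 libraries its log2 fold change was 0.32 ± 0.15 under rimonabant (adjusted p = 0.121) and 0.29 ± 0.14 under TXX-1-10 (adjusted p = 0.0806), neither past the test. It was chosen after its values were seen.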
